A study of Saccharomyces cerevisiae with 4 samples.

Results

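The nuclear pore complex genes of budding yeast (*Saccharomyces cerevisiae*) were followed through ribosome footprints and mRNA in meiotic cells that lack *DBP1*. Members were taken by name: listed entries of 1 ORF whose symbol is NUP followed by digits, or is *NSP1*, *NIC96*, *GLE1*, *GLE2*, *SEH1*, *SEC13*, *POM33*, *POM34*, *POM152*, *ASM4*, *MLP1* or *MLP2*. The rule found 31 genes among the 6549 listed entries. The description in the files placed all 31 at the pore or in nucleocytoplasmic transport. *POM33* is not among them, because its entry, YLL023C, is listed without a symbol.

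Diploid SK1 cells, a background that sporulates efficiently, spent 4 h in sporulation medium and were harvested after 1 min of cycloheximide, which holds ribosomes on mRNA. The *dbp1Δ::kanMX6* strain has both copies of the *DBP1* ORF, which encodes an RNA helicase, replaced by a Geneticin-resistance cassette, and the wild-type strain keeps them. Both strains are *MATa/MATalpha* and carry *trp1::hisG*, *his3::hisG*, *leu2::hisG*, *ura3*, *lys2* and *ho::LYS2*. In this deletion the study also found the neighboring gene *MRP51* to be repressed. It reported that *MRP51* placed elsewhere in the genome, but not *DBP1*, rescued the growth, sporulation and polysome defects of this strain. The study traced every phenotype it detected to *MRP51*. A difference between the strains thus cannot be assigned to loss of *DBP1*, and no rescued strain is among these libraries. Footprints, the mRNA fragments that ribosomes protect, and mRNA were each sequenced once per genotype. With 1 library per genotype and assay no difference has a replicate check, and no test was made. Values are RPKM, reads per kilobase of ORF scaled to the total mapped in each library, and translation efficiency (TE) is footprint RPKM divided by mRNA RPKM. Ratios are *dbp1Δ::kanMX6* over wild type, and the ranges in parentheses are 95% intervals for counting error only, computed from inferred read numbers.

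The pore is a ring-shaped assembly in the nuclear envelope through which proteins and RNA pass between nucleus and cytoplasm. Its scaffold holds a Y-shaped outer ring complex and an inner ring, anchored by membrane proteins. Nucleoporins with phenylalanine-glycine (FG) repeats fill the channel, mRNA export factors dock on the cytoplasmic face and a basket projects into the nucleus. In yeast meiosis the nuclear envelope stays closed during the divisions, while the pores are remodelled.

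*DBP1*, the deleted gene, had 6.9 RPKM of footprints in *dbp1Δ::kanMX6* cells and 435.2 RPKM in wild-type cells, and its mRNA was 2.9 against 131.5 RPKM. The libraries held an inferred 2220000 to 4770000 reads. All 31 pore genes averaged 10 RPKM or more over the libraries and were above 0 in each of the 4, and the fewest inferred reads of any member in any library were 19. Across all entries the median ratio was 1.27 for footprints, 1.29 for mRNA and 0.953 for TE, which are shifts of 0.35, 0.37 and −0.07 on the log2 scale. Because the first pair of shifts is large, changes are also given relative to the median entry. Middle meiotic genes, which are switched on as the divisions begin, were mostly lower in the deletion. All 21 on the list had lower footprints, with a median ratio of 0.412, where 68.7% of all entries had higher footprints. Their mRNA was higher for 2 and lower for 19, with a median ratio of 0.585, where 71.3% of entries were higher. Their TE was higher for 3 and lower for 18, with a median ratio of 0.608, where 44.8% of entries were higher. The meiotic state was checked by 7 genes: *IME1*, *IME2*, *NDT80*, *HOP1*, *ZIP1*, *DMC1* and *REC8*. Of these, 6 had higher footprints and 5 higher mRNA, with median ratios of 1.25 and 1.22. The part of the middle meiotic difference in the pore gene changes was not tested. Fewer cells at a stage and lower levels per cell, of RNA or of footprints, cannot be told apart in such bulk libraries.

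As a group the pore genes were slightly higher in *dbp1Δ::kanMX6* cells and differed between genotypes about as much as the median entry did, while 5 members had footprints at least 1.5-fold lower, as did 13.9% of all entries. The median footprint ratio of the 31 members was 1.21 and their median mRNA ratio was 1.46, or −0.072 and 0.18 relative to the median entry on the log2 scale. Their median TE ratio was 0.847, −0.17 relative to the median entry on the log2 scale. Footprints were higher for 22 members and lower for 9, where 68.7% of all entries were higher. Their mRNA was higher for 23 and lower for 8, with 71.3% of entries higher, and their TE was higher for 13 and lower for 18, with 44.8% of entries higher. The 5 with footprints at least 1.5-fold lower were *ASM4*, *MLP1*, *NUP116*, *NUP159* and *POM34*. When changes were centred on the median entry, 7 of the footprint increases (*NUP53*, *NUP49*, *NUP57*, *NUP42*, *GLE1*, *NUP2* and *NUP60*) and 4 of the mRNA increases (*NUP157*, *NSP1*, *MLP2* and *POM34*) became decreases, and so they did under trimmed-mean scaling.

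Changes of at least 2-fold were few. Footprints were at least 2-fold higher for 2 members, *SEH1* and *NUP133*, where 15.1% of all entries passed that limit. They were at least 2-fold lower for 3 members, *ASM4*, *MLP1* and *NUP116*, where 8.23% of entries did. Centred on the median entry, these counts were 0 higher and 5 lower, with *NUP159* and *POM34* added, against 6.36% and 12.8% of entries. For mRNA, 1 member was at least 2-fold higher (*NUP133*) and 1 at least 2-fold lower (*ASM4*), against 16.6% and 4.18% of entries, and the centred counts were 0 and 2 against 7.10% and 8.43%. TE was at least 2-fold lower for 2 members, *ASM4* and *POM34*, against 6.07% of entries, and at least 2-fold higher for 0, against 3.43%. The centred TE counts were the same, against 5.34% and 3.91%. At a 1.5-fold limit, footprints were higher for 6 members and lower for 5, against 36.3% and 13.9% of entries, and mRNA was higher for 14 and lower for 2, against 36.0% and 9.12%. TE was higher for 2 and lower for 8 at that limit, against 10.7% and 18.0% of entries. Read against these shares, increases in footprints took a smaller share of the 31 members than of all entries at both limits, and decreases took a share near the background. The interquartile range of the members was 0.61 log2 units for the footprint change and 0.66 for the mRNA change, against 0.93 and 0.87 over all entries.

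**Figure D1:**
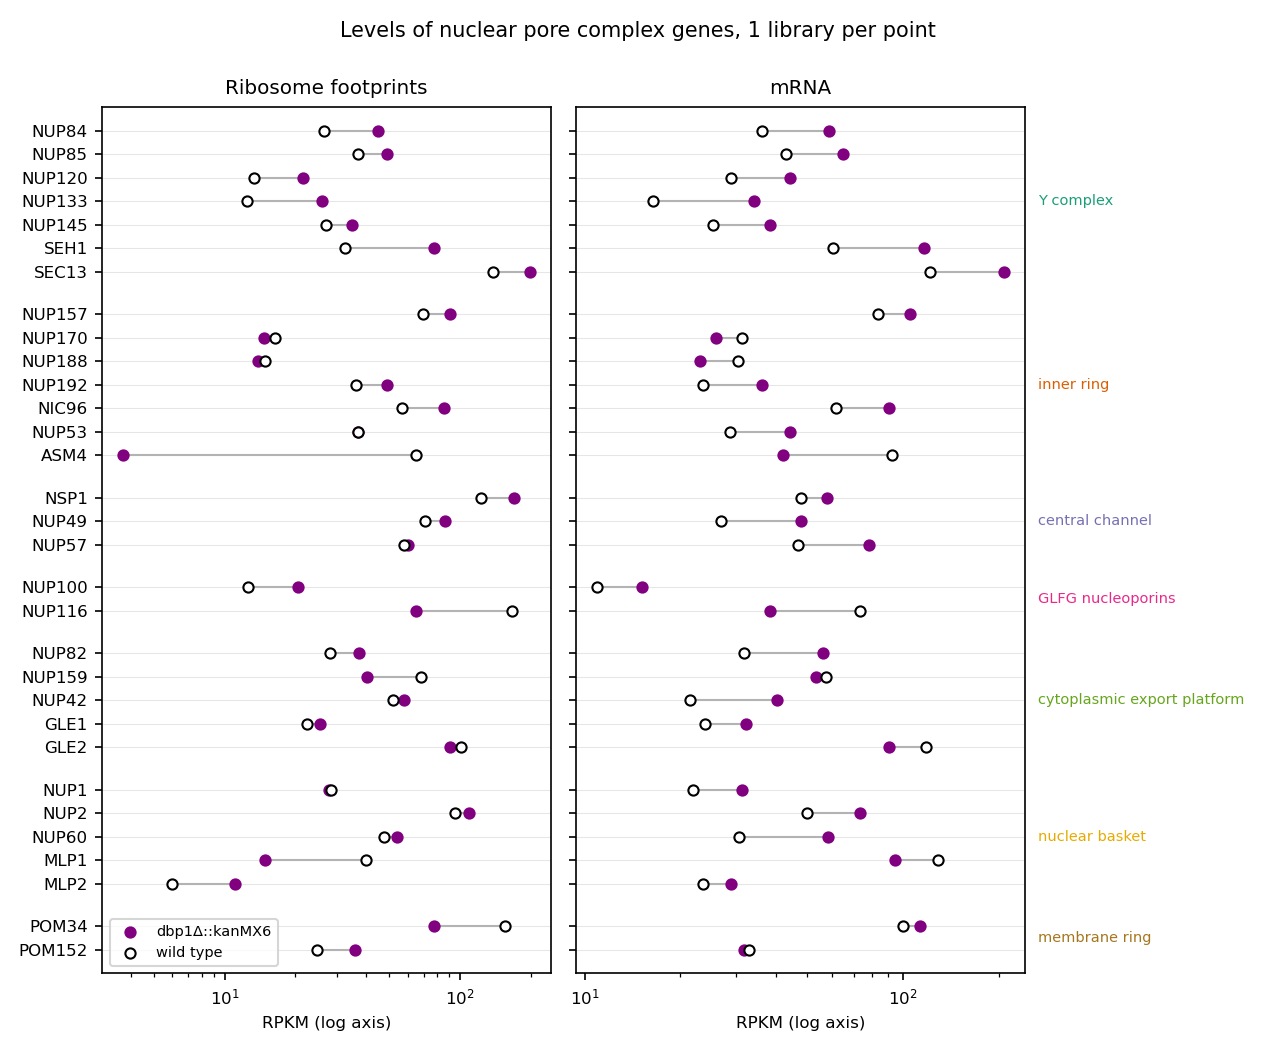
Footprint and mRNA levels of the 31 pore genes in RPKM on log axes, ordered by their place in the pore, with 1 library per point. Purple points are *dbp1Δ::kanMX6* cells and open points wild-type cells. *ASM4* shows the widest gap, at 3.7 RPKM of footprints in the deletion and 65.1 RPKM in wild type.

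The Y complex, the coat-like unit of the outer rings, was higher throughout in *dbp1Δ::kanMX6* cells. Footprints and mRNA were both higher for all 7 of its genes, where 68.7% and 71.3% of all entries were higher. All 7 lay above the median entry for each measure and stayed higher under every scaling tried. Their median ratio was 1.60 for footprints and 1.62 for mRNA, and their TE was nearly the same in the genotypes, with a median ratio of 1.01. *NUP84* had 44.8 RPKM of footprints in *dbp1Δ::kanMX6* cells and 26.5 RPKM in wild-type cells, with 58.6 against 36.2 RPKM of mRNA. *NUP85* had 48.9 against 36.7 RPKM of footprints and 64.7 against 42.8 RPKM of mRNA. Values for *NUP120* were 21.5 against 13.4 RPKM of footprints and 44.1 against 28.8 RPKM of mRNA. These 3 genes encode structural subunits of the Y, and the TE interval of each included no change. The ratios of *NUP85* were 1.33 for footprints, near the median entry, and 1.51 for mRNA. At the 1.5-fold limit 4 of the 7 were higher for footprints and all 7 for mRNA, against 36.3% and 36.0% of entries. Centred on the median entry, only *NUP133* (1.60) passed that limit for mRNA, where 17.9% of entries did. For footprints only *NUP133* (1.65) and *SEH1* (1.88) then passed it, against 17.6% of entries.

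*NUP133*, which encodes the end of the stalk of the Y, had 26.0 RPKM of footprints in *dbp1Δ::kanMX6* cells against 12.4 RPKM in wild type, 2.10-fold higher (1.73 to 2.54). Its mRNA was 34.0 against 16.4 RPKM, 2.07-fold higher (1.71 to 2.54), so that TE was 0.765 in the deletion and 0.756 in wild type. *SEH1* had the highest footprint ratio of all members, at 77.1 RPKM in *dbp1Δ::kanMX6* cells and 32.3 RPKM in wild-type cells, 2.39-fold higher (1.94 to 2.96), with mRNA at 116.1 against 60.3 RPKM. Seh1 also works outside the pore, in a complex on the vacuole membrane. *SEC13*, whose product is also a coat subunit of vesicles leaving the endoplasmic reticulum, had the highest levels of the group, with 198.5 against 137.1 RPKM of footprints and 208.3 against 121.7 RPKM of mRNA.

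*NUP145* encodes a protein that cuts itself into an FG-repeat part and a part that joins the Y complex. It had 34.6 RPKM of footprints in *dbp1Δ::kanMX6* cells against 27.0 RPKM in wild type, 1.28-fold higher (1.12 to 1.46), the smallest footprint increase of the group and close to the median entry. Its mRNA was 38.3 against 25.3 RPKM. The subunits are thought to enter the Y complex in equal copies. Leaving out *SEC13* and *SEH1*, which have other uses, the highest footprint level among the remaining 5 genes was 2.27 times the lowest in *dbp1Δ::kanMX6* cells and 2.96 times in wild-type cells. For mRNA these spreads were 1.90 and 2.61.

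The inner ring genes were mixed. Of these 7 genes, 4 had higher footprints and 3 lower, where 68.7% of all entries were higher. Their median footprint ratio was 1.00 and their median mRNA ratio 1.26. *NUP157* had 90.3 RPKM of footprints in *dbp1Δ::kanMX6* cells and 69.4 RPKM in wild-type cells, and 105.0 against 83.5 RPKM of mRNA. *NUP192*, a large scaffold subunit, had 48.8 against 36.1 RPKM of footprints and 36.0 against 23.6 RPKM of mRNA. *NIC96*, which ties the channel nucleoporins to the scaffold, had 85 against 56.8 RPKM of footprints and 90.2 against 61.6 RPKM of mRNA. For these 3 genes both measures were higher and their footprint ratios, 1.30, 1.35 and 1.50 in that order, were above that of the median entry.

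*NUP170* and *NUP188*, the other large scaffold genes of the inner ring, were lower in mRNA. *NUP170* had 14.7 RPKM of footprints in *dbp1Δ::kanMX6* cells against 16.4 RPKM in wild type, and 25.9 against 31.2 RPKM of mRNA, 1.20-fold lower (1.04 to 1.38). *NUP188* had 13.8 against 14.9 RPKM of footprints and 23.0 against 30.4 RPKM of mRNA, 1.32-fold lower (1.15 to 1.52). The footprint intervals of both genes included no change.

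The last pair of the inner ring are *NUP53* and its paralog *ASM4*, also called *NUP59*, which encode linkers between the scaffold and the membrane. *ASM4* had the largest change of any pore gene. Its footprints were 3.7 RPKM in *dbp1Δ::kanMX6* cells and 65.1 RPKM in wild-type cells, an inferred 19 against 425 reads and 17.6-fold lower (11.2 to 29.8). The mRNA of *ASM4* was 42.0 RPKM in the deletion and 92.2 RPKM in wild type, 2.20-fold lower (1.88 to 2.57). The footprint difference was thus larger than that of the mRNA, and TE was 0.0881 in *dbp1Δ::kanMX6* cells against 0.706 in wild-type cells, 8.01-fold lower (4.94 to 13.0). In order of footprint ratio *ASM4* was number 27 from the lowest among 5453 entries, and in order of TE ratio number 17 among 5452. *NUP53* had 37.0 RPKM of footprints in *dbp1Δ::kanMX6* cells against 36.9 RPKM in wild type, with mRNA at 44.1 against 28.6 RPKM, and its TE was 1.54-fold lower (1.13 to 2.09).

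**Figure D2:**
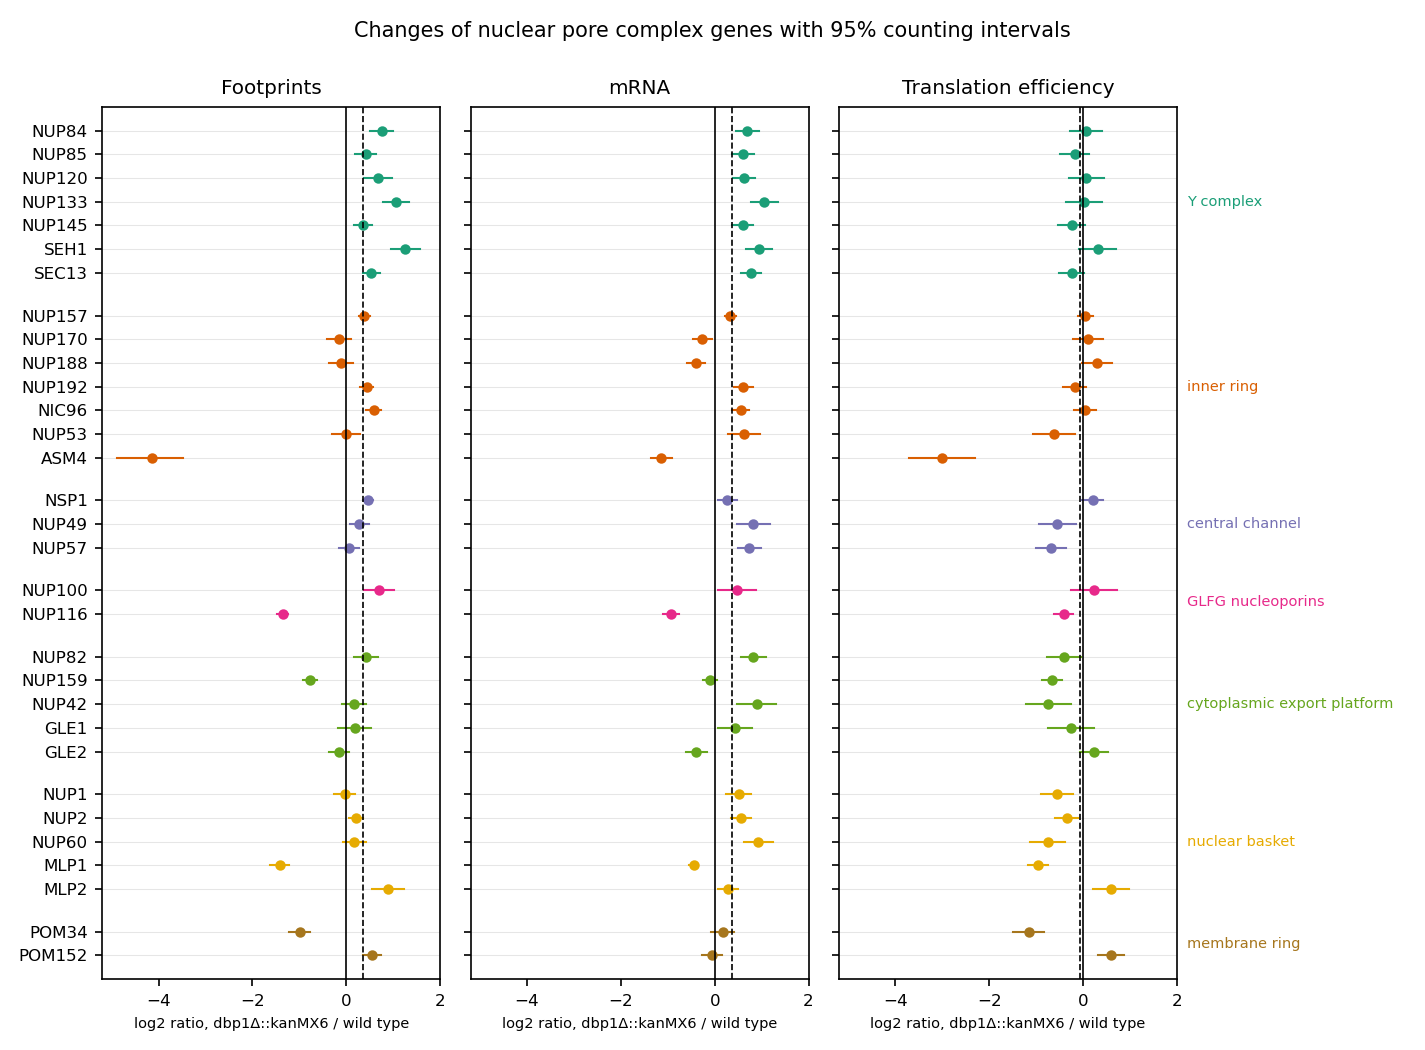
Log2 ratio of *dbp1Δ::kanMX6* to wild type for footprints, mRNA and TE of each pore gene, colored by its place in the pore. Bars are 95% intervals for counting error only, the solid line is no change and the dashed line the median of all entries. The 7 Y complex genes lie to the right of the dashed line for footprints and mRNA, and *ASM4* lies farthest left for footprints and TE.

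The 3 central channel genes encode FG-repeat proteins that form 1 complex, and their translation efficiency was above 1 in wild type and, for *NSP1* and *NUP49*, in the deletion. *NSP1* had 169.0 RPKM of footprints in *dbp1Δ::kanMX6* cells and 122.3 RPKM in wild-type cells, 1.38-fold higher (1.28 to 1.49), with 57.6 against 47.9 RPKM of mRNA. *NUP49* had 85.8 against 70.9 RPKM of footprints and 47.7 against 26.9 RPKM of mRNA. *NUP57* had 60.1 against 57.7 RPKM of footprints and 78.0 against 46.7 RPKM of mRNA. The TE of *NSP1* was 2.93 in the deletion and 2.55 in wild type, above that of 98.9% and 97.9% of entries, the highest rank of any pore gene in the deletion. The TE of *NUP49* was 1.8 in *dbp1Δ::kanMX6* cells against 2.64 in wild-type cells, and that of *NUP57* was 0.771 against 1.24, above that of 55.2% of entries in the deletion and 80.0% in wild type. The mRNA of both was over 1.5-fold higher in the deletion while their footprints were at most 1.21-fold higher.

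*NUP100* and *NUP116* are paralogs whose products carry repeats of the GLFG type and bind transport receptors. They differed between genotypes in opposite directions. *NUP116* had 65.1 RPKM of footprints in *dbp1Δ::kanMX6* cells and 166.4 RPKM in wild-type cells, 2.56-fold lower (2.35 to 2.79), the highest footprint level of any pore gene in wild type. Its mRNA was 38.3 against 73.4 RPKM, 1.92-fold lower (1.70 to 2.15), so most of the footprint difference was present in the mRNA. TE of *NUP116* was 1.70 in the deletion and 2.27 in wild type. *NUP100* had 20.5 against 12.6 RPKM of footprints, 1.63-fold higher (1.30 to 2.03), and 15.1 against 10.9 RPKM of mRNA, the lowest mRNA level of any pore gene in both genotypes.

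On the cytoplasmic face, the export platform removes proteins from mRNA as it leaves the pore. *NUP82*, which encodes its structural core, had 37.2 RPKM of footprints in *dbp1Δ::kanMX6* cells and 27.9 RPKM in wild-type cells, with 56.0 against 31.6 RPKM of mRNA. *NUP42* had 57.8 against 51.7 RPKM of footprints and 40.1 against 21.5 RPKM of mRNA. *GLE1*, whose product activates the helicase Dbp5, had 25.3 against 22.4 RPKM of footprints and 32.2 against 23.9 RPKM of mRNA. All 3 genes had more mRNA in the deletion and a smaller footprint increase, which for *NUP42* and *GLE1* was within counting error.

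*NUP159*, whose product recruits Dbp5, had lower footprints with nearly the same mRNA. It had 40.1 RPKM of footprints in *dbp1Δ::kanMX6* cells and 68.2 RPKM in wild-type cells, 1.70-fold lower (1.54 to 1.88), and 53.4 against 57.4 RPKM of mRNA, a difference within counting error. Its TE was 0.751 in the deletion against 1.19 in wild type, 1.58-fold lower (1.37 to 1.82). *GLE2*, the yeast form of the export factor Rae1 and a partner of Nup116, had 90.4 against 100.8 RPKM of footprints and 90.4 against 118.3 RPKM of mRNA, so that its mRNA was 1.31-fold lower (1.13 to 1.52).

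In the nuclear basket, *NUP1*, *NUP2* and *NUP60* encode FG-repeat proteins and *MLP1* and *MLP2* encode the long coiled coils of the filaments. *NUP1* had 27.7 RPKM of footprints in *dbp1Δ::kanMX6* cells and 28.4 RPKM in wild-type cells, with 31.2 against 21.9 RPKM of mRNA. *NUP2* had 109.3 against 94.9 RPKM of footprints and 73.5 against 50 RPKM of mRNA. *NUP60*, which encodes the anchor of Nup2 at the pore, had 53.7 against 47.6 RPKM of footprints and 58.1 against 30.5 RPKM of mRNA. These 3 genes had between 1.42-fold and 1.90-fold more mRNA in the deletion, with footprints between 0.975 and 1.15 of wild type. The TE of *NUP60* was 0.924 in *dbp1Δ::kanMX6* cells against 1.56 in wild type, 1.69-fold lower (1.30 to 2.20).

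*MLP1* had the highest mRNA level of any pore gene in wild type and a low TE in both genotypes. Its mRNA was 94.4 RPKM in *dbp1Δ::kanMX6* cells and 128.7 RPKM in wild-type cells, 1.36-fold lower (1.28 to 1.45). Its footprints were 14.9 RPKM in the deletion and 39.7 RPKM in wild type, 2.66-fold lower (2.33 to 3.06). TE of *MLP1* was 0.158 against 0.308, 1.95-fold lower (1.68 to 2.27), and exceeded that of only 5.61% of entries in *dbp1Δ::kanMX6* cells and 12.2% in wild-type cells. *MLP2* also had a low TE, at 0.385 in the deletion and 0.254 in wild type, but differed the other way. It had 11.1 RPKM of footprints in *dbp1Δ::kanMX6* cells against 6.0 RPKM in wild type, 1.85-fold higher (1.46 to 2.34), and 28.8 against 23.6 RPKM of mRNA.

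The listed membrane ring genes, which encode proteins that span the nuclear envelope beside the pore, also differed in opposite directions. *POM34* had 77.7 RPKM of footprints in *dbp1Δ::kanMX6* cells and 154.5 RPKM in wild-type cells, 1.99-fold lower (1.70 to 2.33). Its mRNA was 112.8 against 100.4 RPKM, within counting error, and its TE was 0.689 in the deletion against 1.54 in wild type, 2.23-fold lower (1.78 to 2.80). *POM34* was the one member with footprints at least 1.5-fold lower and mRNA not lower as deposited, a pattern chosen after its values were seen and shown by 2.62% of entries. Its mRNA became lower when changes were centred on the median entry. *POM152* had 35.9 RPKM of footprints in *dbp1Δ::kanMX6* cells against 24.6 RPKM in wild type, 1.46-fold higher (1.28 to 1.67), and 31.6 against 32.9 RPKM of mRNA. Its TE was 1.14 against 0.748, 1.52-fold higher (1.25 to 1.84).

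**Figure D3:**
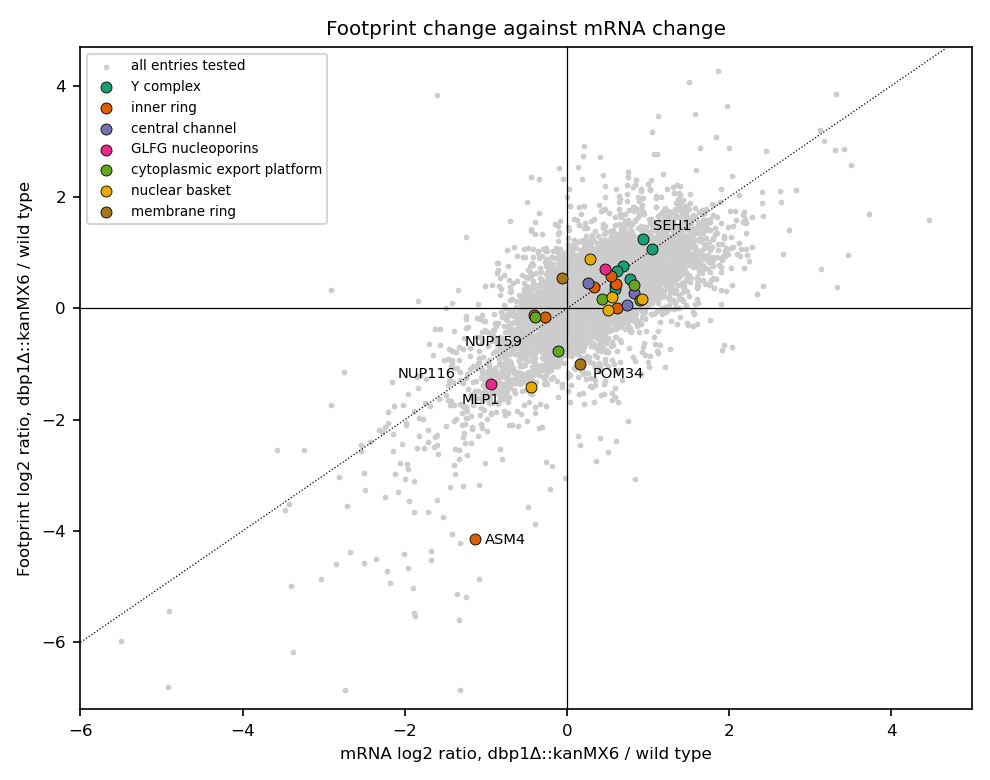
Footprint log2 ratio against mRNA log2 ratio, *dbp1Δ::kanMX6* over wild type, for all entries tested (gray) and the 31 pore genes (colored by place in the pore). The dotted line marks equal change in both measures. *ASM4* lies far below that line, *POM34* lies below it with mRNA near 0, and *NUP116* lies closer to it.

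Footprint and mRNA changes were related across the pore genes, with a Pearson r of 0.771 and a Spearman rho of 0.567 over 31 genes, or 0.710 and 0.523 without *ASM4*. Over all entries r was 0.714 and rho 0.666. Log2 footprint and log2 mRNA levels were related by an r of 0.628 in *dbp1Δ::kanMX6* cells and 0.709 in wild-type cells. The genes share the same 4 libraries and are not independent replicates, so these values are descriptions. Longer ORFs tended to have lower TE in wild type (r −0.392, rho −0.372), and less so in the deletion (r −0.127, rho −0.203). The length relation was not repeated without *ASM4*, an ORF of 1587 bp. Its TE of 0.0881 in the deletion rests on 19 inferred footprint reads.

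Each of the 4 paralog pairs among the members was compared within a library, where scaling has no effect on the ratio. *NUP53* footprints were 10.0 times those of *ASM4* in *dbp1Δ::kanMX6* cells (6.25 to 17.1), whereas *ASM4* footprints were 1.76 times those of *NUP53* in wild-type cells (1.49 to 2.09). *NUP116* footprints were 3.18 times those of *NUP100* in the deletion (2.71 to 3.75) and 13.2 times in wild type (11.2 to 15.7). *MLP1* footprints were 1.34 times those of *MLP2* in *dbp1Δ::kanMX6* cells (1.11 to 1.63) and 6.62 times in wild-type cells (5.49 to 8.06). In these 3 pairs the paralog with more footprints in wild type, *ASM4*, *NUP116* or *MLP1*, was the one that was lower in the deletion. The exception was *NUP157* and *NUP170*, where *NUP157* had 6.14 times the footprints of its paralog in the deletion (5.31 to 7.13) and 4.23 times in wild type (3.73 to 4.81). Wild-type footprints enter both the order within a pair and the ratio, so the pattern is not particular to paralogs. Across all 31 members log2 wild-type footprints and footprint change had an r of −0.382. How reads that match more than 1 place were treated is not stated, and its part in the paralog values was not tested.

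The median TE of the FG-repeat nucleoporins was higher than that of the other pore genes in both genotypes, though the groups overlapped. This grouping, which joins *NSP1*, *NUP1*, *NUP2*, *NUP42*, *NUP49*, *NUP57*, *NUP60*, *NUP100*, *NUP116*, *NUP145* and *NUP159*, was made after their values were seen and has no test. FG repeats were not counted in the sequences, and the list leaves out *NUP53* and *ASM4*. Their wild-type TE was 1.29 and 0.706, so a list with *ASM4* would not lie wholly above 1. In the deletion their TE was 0.839 and 0.0881. In wild-type cells all 11 had a TE above 1, from 1.07 to 2.64 with a median of 1.56, whereas 4 of the other 20 pore genes did (*NUP192*, *NUP53*, *SEC13* and *POM34*), with a median of 0.794. Over all entries 31.5% had a TE above 1 in wild type. In *dbp1Δ::kanMX6* cells 6 of the 11 and 2 of the other 20 were above 1 (*NUP192* and *POM152*), with medians of 1.36 and 0.760, against 29.1% of entries. TE was lower in the deletion for 9 of the 11, with a median ratio of 0.685, and for 9 of the other 20, with a median ratio of 1.02. Over all entries the median TE ratio was 0.953, and TE was higher for 44.8%. Wild-type TE was known when the list was made and is also the denominator of the ratio. A lower ratio in a list that is high in wild type is thus not shown to be particular to FG-repeat genes.

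As deposited, footprints were higher for 8 of the 11 FG-repeat genes and mRNA for 9, where 68.7% and 71.3% of all entries were higher. Relative to the median entry this turned for footprints, with 3 of the 11 above it and 8 below, while 8 were above it for mRNA and 3 below. Their median mRNA ratio was 1.47, close to the 1.40 of the other pore genes, and their median footprint ratio was 1.13, against 1.33. The TE intervals of *NSP1*, *NUP100* and *NUP145* included no change. FG repeats are similar sequences, and the effect of reads that match several of them was not tested.

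**Figure D4:**
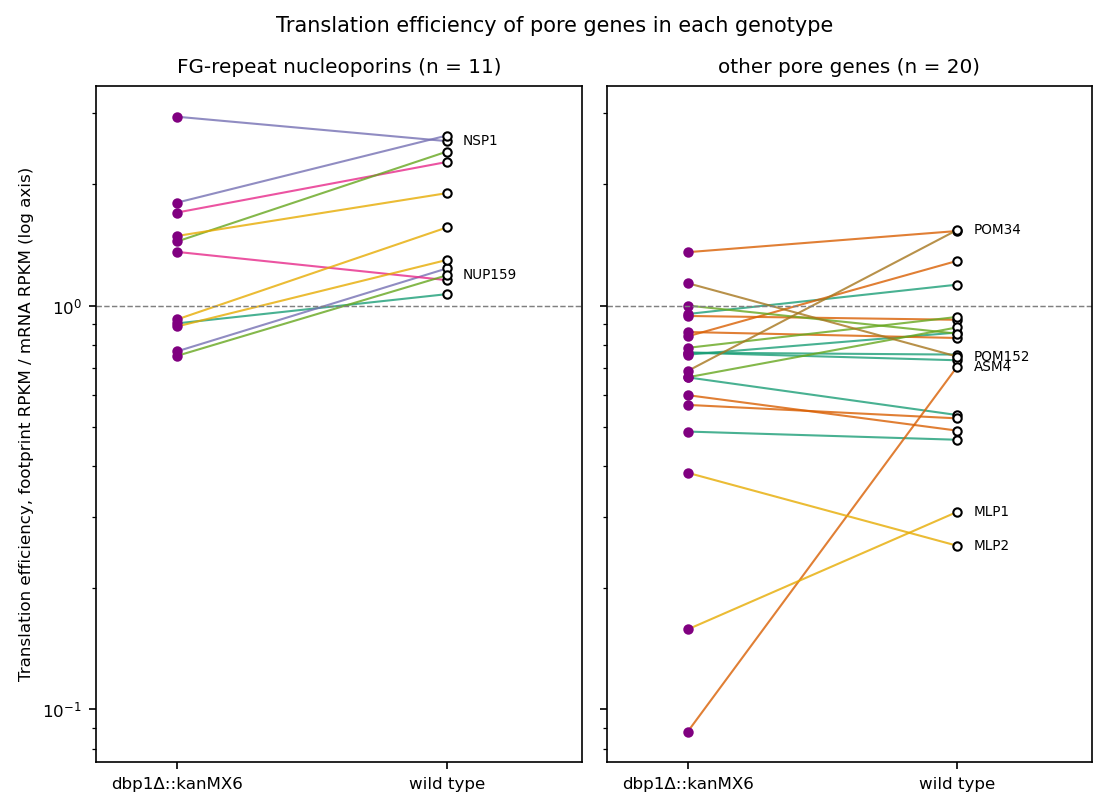
TE of each pore gene in *dbp1Δ::kanMX6* cells (left, purple) and wild-type cells (right, open), on a log axis, for the 11 FG-repeat nucleoporins and the other 20 pore genes. Lines join the same gene and take the color of its place in the pore. All 11 FG-repeat genes of this list lie above 1 in wild type and 6 of them in the deletion. *NUP53* and *ASM4* are shown among the other 20.

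Other genes of nuclear transport were compared through 4 lists. Of 15 importins and exportins, the receptors that carry cargo through the pore, 13 were higher for footprints and 14 for mRNA in the deletion. Of all entries 68.7% and 71.3% were higher, and 12 of the 15 lay above the median entry for each measure. Their median ratio was 1.59 for footprints and 1.58 for mRNA. Footprints were at least 2-fold higher for 2 of them and at least 2-fold lower for 0, against 15.1% and 8.23% of entries, and centred on the median entry for 0 and 1, against 6.36% and 12.8%. *CSE1*, which encodes the exporter of importin alpha, had the lowest footprint ratio of this list, at 9.3 RPKM in the deletion against 18.2 RPKM in wild type, 1.96-fold lower (1.53 to 2.56). Its mRNA was 191.5 against 121.1 RPKM, and its TE was 0.0486 in *dbp1Δ::kanMX6* cells and 0.150 in wild-type cells. *KAP122* had the highest footprint ratio, at 19.6 against 9.3 RPKM.

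The 8 genes of the Ran cycle, the GTPase system that gives transport its direction, had a median footprint ratio of 1.66 and a median mRNA ratio of 1.41. Footprints were higher for 6 and mRNA for 8, where 68.7% and 71.3% of all entries were higher, and 5 and 4 lay above the median entry. *SRM1*, which encodes the Ran exchange factor, had the highest footprint ratio, at 80.5 RPKM in *dbp1Δ::kanMX6* cells against 30.1 RPKM in wild-type cells, 2.67-fold higher (2.23 to 3.22). *NTF2*, the importer of Ran, had the lowest, at 749.0 against 959.0 RPKM.

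Of 12 mRNA export factors 7 had higher footprints and 5 lower, where 68.7% of all entries were higher. Their median ratio was 1.13, below the median entry, and 2 were at least 2-fold lower, against 8.23% of entries. Centred on the median entry 3 were, against 12.8%. *NAB2*, which encodes a poly(A)-binding protein, had the lowest footprint ratio, at 145.6 RPKM in the deletion and 330.2 RPKM in wild type, 2.27-fold lower (2.09 to 2.47), with mRNA at 105.3 against 174.7 RPKM. *SUB2*, a helicase gene of the same pathway, had the highest, at 294.5 against 152.0 RPKM.

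Of 8 other genes for pore and envelope assembly 5 had higher footprints and 3 lower, where 68.7% of all entries were higher. Their median ratios were 1.45 for footprints and 1.54 for mRNA. *SRC1*, which encodes a protein of the inner nuclear membrane, had the lowest footprint ratio, at 147.6 RPKM in *dbp1Δ::kanMX6* cells against 417.1 RPKM in wild-type cells, 2.83-fold lower (2.65 to 3.01), and mRNA at 148.7 against 301.3 RPKM. *NDC1*, whose product sits in the membrane ring with Pom34 and Pom152, had the highest, at 54.6 against 29.9 RPKM of footprints, and 54.2 against 32.2 RPKM of mRNA.

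**Figure D5:**
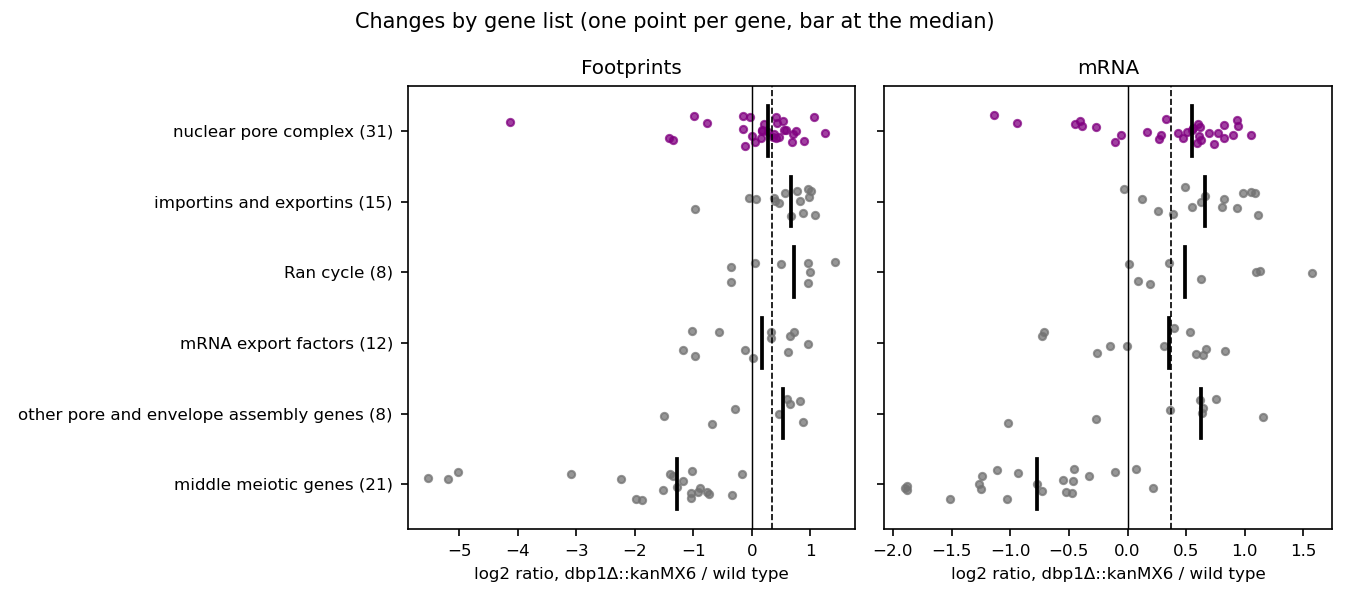
Log2 ratio of *dbp1Δ::kanMX6* to wild type for footprints and mRNA by gene list, with 1 point per gene and a bar at each median. The solid line is no change and the dashed line the median of all entries. The pore genes (purple) have a median footprint ratio of 1.21 with a tail of lower values, and all 21 middle meiotic genes lie below no change for footprints.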

How the data were processed

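Meiotic wild-type and *dbp1Δ::kanMX6* SK1 cells gave 1 footprint and 1 mRNA library each. After mapping to the genome of SK1, the authors turned the reads of each ORF into RPKM and deposited these values to 1 decimal. Per the labels, CASAVA, bcl2fastq 2.17 and Bowtie2 were used. The settings, the annotation, the use of strand and how reads matching several places were handled are not given in the sources used here.

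Ratios were formed as deposited (pseudocount of 0) for entries that averaged 10 RPKM or more and were above 0 in the libraries compared: 5453 for footprints, 5551 for mRNA and 5452 for TE. ORF lengths came from the RefSeq gene table of S288C assembly R64, which matched 5771 entries and all 31 members. That of *NSP1* includes its intron. Coordinates of that build are not used. The depth of a library was taken as the one at which low values (below 20 RPKM) of short ORFs (below 500 bp) came nearest to whole numbers of reads. This held for 63.1% to 66.3% of 131 to 163 values a library, where chance gave 6.98% to 14.8%. Depth recovery was tested on simulated data. Intervals are exact conditional (Clopper-Pearson) for footprints and mRNA and log-normal for TE. They cover counting error only, since PCR copies could not be told from separate molecules.

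Members and lists were chosen with earlier results of these data known. Every member is named. Of each transport list, the highest and lowest footprint ratios are named. Alternatives were pseudocounts of 0.1 and 1, filters, 3 scalings, a 1.5-fold limit and a minimum of 100 inferred reads. Protein and promoter sequences were planned for but not analysed here. Python 3.11.15, NumPy 2.4.6, pandas 2.3.3 and SciPy 1.17.1 were used.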

Additional observations from a re-analysis of the deposited data

How the results depend on the processing

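No paired analysis was possible because each genotype and assay has 1 library. Pseudocounts of 0.1 and 1 and no filter changed no count and barely moved the medians. Centring on the median entry gave a median footprint change of −0.072 (0.28 as deposited) and mRNA change of 0.18 (0.55), and trimmed-mean scaling −0.074 and 0.19. Either gave 0 members at least 2-fold higher for footprints or mRNA, 5 at least 2-fold lower for footprints and 2 for mRNA. Without the 50 highest and the mitochondrial entries, 0 members had at least 2-fold higher mRNA, and *POM34* joined those with at least 2-fold lower footprints. At a mean of at least 50 RPKM, which kept 14 members, the median mRNA change was 0.30, 1 member had at least 2-fold higher footprints and 0 had at least 2-fold higher mRNA. With at least 100 inferred reads in every library, which left 25 members and removed *ASM4*, 0 had at least 2-fold lower mRNA and 1 at least 2-fold lower TE. At a 1.5-fold limit footprints were higher for 6 members and lower for 5, mRNA for 14 and 2, and TE for 2 and 8. No member called at 2-fold changed direction under these settings. Depth limits *ASM4* most, with 19 inferred footprint reads in *dbp1Δ::kanMX6* cells.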

Other observations

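YLL023C, which the RefSeq table pairs with *POM33*, another membrane gene of the pore, is listed in the files without that symbol and was left out of the counts. It was looked up after the other values were seen. It had 224.4 RPKM of footprints in *dbp1Δ::kanMX6* cells and 105.3 RPKM in wild-type cells, 2.13-fold higher (95% interval for counting error 1.86 to 2.43), with mRNA at 112.7 against 104.4 RPKM. Its TE was 1.99 in the deletion and 1.01 in wild type, 1.97-fold higher (1.60 to 2.44), a larger TE ratio than that of any of the 31 pore genes counted.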
